A study of Saccharomyces cerevisiae with 14 samples.

Results

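The large subunit of the cytosolic ribosome was followed through a brewery fermentation by the transcripts of its protein genes. These are the S. cerevisiae genes whose standard name is RPL and a number, with or without a final A or B for duplicated copies, and RPP0, RPP1A, RPP1B, RPP2A and RPP2B of the ribosomal stalk. The array's annotation held 75 such genes among 5449 S. cerevisiae genes with a probe set assigned to 1 gene, and each was read from the brightest of its probe sets. RPL1A, RPL35B, RPL41B, RPL42A and RPL7B, which the naming rule also covers, are not analysed here. Of the probe sets used, 12 carry the manufacturer's mark for a set that matches several transcripts and are called shared here (RPL11B, RPL14B, RPL18B, RPL1B, RPL21A, RPL2A, RPL35A, RPL41A, RPL42B, RPL4A, RPL7A and RPL8A).

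The cells were lager yeast strain CB11 in 1 full-scale cylindroconical vessel, filled in stages with oxygenated malt wort that held a sugar adjunct and added zinc. The yeast was a production batch already used in earlier fermentations. Total RNA was labelled with biotin and put on Affymetrix yeast arrays of 1 colour: 3 arrays for 8 h after the yeast was added to the wort, 2 for 30 h and 3 each for 60, 80 and 102 h. All 5 groups share strain, wort and vessel and differ in time, so time cannot be told apart from anything else that changed in the vessel. Lager yeasts are hybrids with a second parental genome, and a probe set designed on S. cerevisiae may also read the transcript of the other parent.

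A eukaryotic large subunit joins long ribosomal RNAs to many proteins, holds the peptidyl transferase centre that forms peptide bonds, and carries the tunnel through which the new chain leaves. In budding yeast most of these proteins come from a pair of paralogous genes, written A and B. In many pairs, though not all, the copies encode identical or nearly identical proteins. Ribosomal protein genes are among the most highly transcribed genes of growing yeast and are known as a regulon, driven by Rap1, Fhl1, Ifh1 and Sfp1 and tied to nutrients through the TOR and protein kinase A pathways.

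All 75 genes were above background on all 14 arrays, with signals from 45.4 to 10140 after quantile normalization between arrays. Signal is a linear intensity and depends on the probes, so signals of different genes are not read as a ranking of abundance. Between 94.4% and 96.7% of the S. cerevisiae probe sets lay above background on an array, against 2.06% to 5.15% of those named for another organism. On 3 arrays the 5′ parts of control transcripts were dim relative to their 3′ parts: the mean log2 ratio was -3.30 on 8 h replicate 1, -4.08 on 60 h replicate 1 and -1.66 on 60 h replicate 2, and -0.74 to -0.36 on the others. Those 3 are called the 5′-poor arrays. The 2 arrays of 30 h also stood apart, with a median log2 signal over the 75 genes of 11.50 in replicate 1 and 11.95 in replicate 2. Counts are therefore also given without the 5′-poor arrays, and without an array where that moved them.

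The transcripts of the large subunit were highest early and lowest in the middle of the fermentation. The median log2 signal of the 75 genes was 12.20, 12.14 and 12.10 on the 8 h arrays, 11.50 and 11.95 at 30 h, 10.95, 10.64 and 10.57 at 60 h, 11.31, 11.33 and 11.19 at 80 h, and 11.50, 11.46 and 11.52 at 102 h. No array of 60, 80 or 102 h reached the lowest 8 h array. In total RNA, a lower signal in a cell and a smaller share of cells that carry the transcript cannot be told apart. The mean signal peaked at 8 h for 72 of the 75 genes, at 80 h for RPL10 and RPL40A, and at 102 h for RPL4A. Without the 5′-poor arrays RPL4A had a log2 change of -0.0086 at 102 h against 8 h, so its peak at 102 h did not hold there. The mean signal was lowest at 60 h for 72 genes and at 80 h for RPL15B, RPL26A and RPL29. For RPL26A the log2 change at 80 h against 60 h was only -1e-04, so its means at 60 and 80 h were practically equal.

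**Figure D1:**
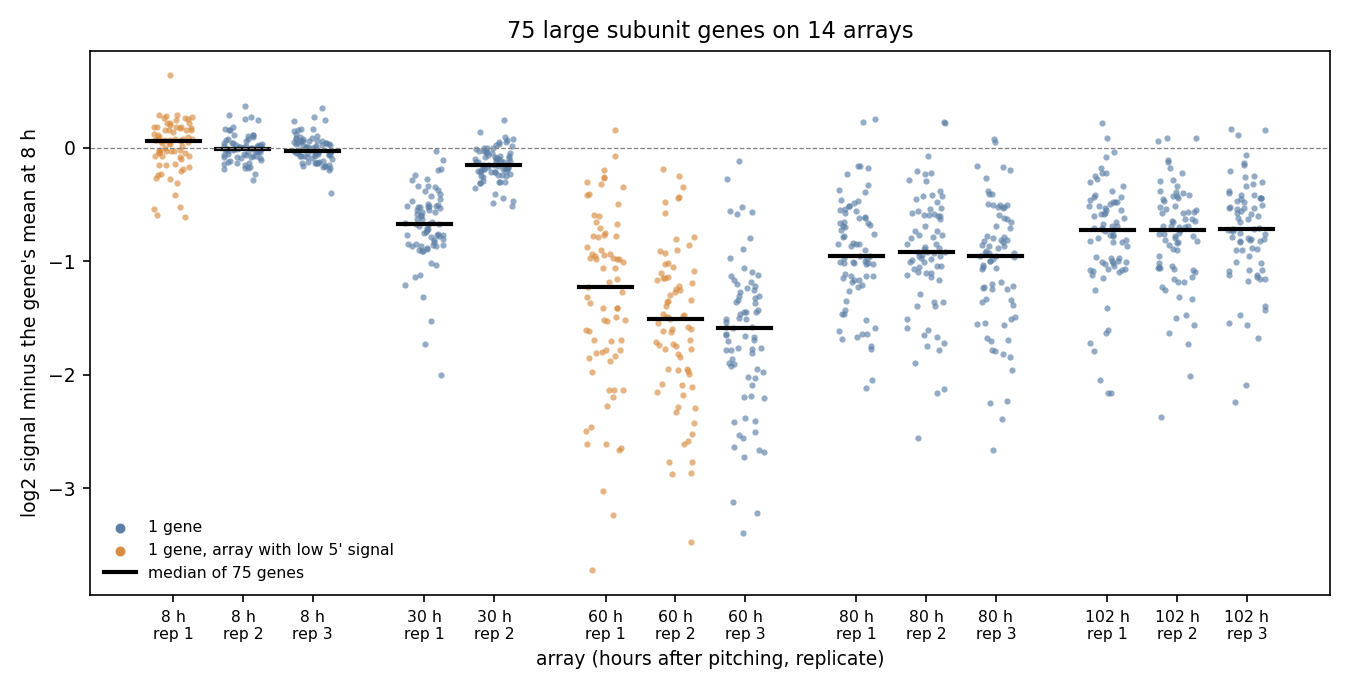
Each point is 1 of the 75 genes on 1 array, as its log2 signal minus its own mean at 8 h, with arrays in order of time and replicate on the horizontal axis; black bars are medians and orange points mark the 5′-poor arrays. The bars of the 60 h arrays lie lowest, and those of 80 and 102 h lie between them and the 8 h arrays.

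A change over the 5 times passed the limma F-test, at a Benjamini-Hochberg adjusted p under 0.05, for 72 of 75 genes, against 68.5% of the 5338 probe sets tested. RPL40A, RPL43A and RPL38 did not pass. The ratio of a gene's highest to its lowest time mean ran from 1.19 to 9.06 with a median of 2.78; it was at least 2 for 61 genes and at least 4 for 17. Over the 61 genes, the share of the log2 fall of the mean between 8 and 60 h that was regained by 102 h had a median of 48.6% and quartiles of 33.5% and 60.2%. It was -10.4% for RPL15B, 28.9% for RPL31B, 67.7% for RPP0 and 84.6% for RPP2A, and RPL4A passed its 8 h mean at 112%. All of the 5′-poor arrays are of 8 or 60 h, and no share without them is given here. Leaving those arrays out, limma gave RPP2A -0.73 (adjusted p = 0.010) at 102 h against 8 h, where it had -0.42 with all arrays. RPL4A then had -0.0086, so it no longer passed its 8 h mean.

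Between 8 and 30 h the large subunit genes shifted downward together by a small amount that the test did not call. The median log2 change at 30 h against 8 h was -0.40, beside -0.04 for all tested probe sets, and 74 of 75 changes were below 0. Limma called 0 genes higher and 0 lower, where 0.112% of all probe sets were called higher and 0.131% lower. At an unadjusted p under 0.05 the counts were 0 and 33, and over all 5338 probe sets 338 and 543. The largest changes were -1.21 ± 0.46 (SE, adjusted p = 0.22) for RPL22B and -1.02 ± 0.27 (adjusted p = 0.10) for RPL31B, and RPL40A stood at 0.00 ± 0.13. RPL22B had -2.002, passing, without 30 h replicate 2 and -0.41 without 30 h replicate 1. RPL31B passed without 30 h replicate 2 (-1.53), 60 h replicate 1 (-1.02) or the 5′-poor arrays (-1.12). This comparison turned on single arrays: 23 genes were called lower without 30 h replicate 2, 3 without 60 h replicate 1 and 11 without the 5′-poor arrays, and the median was -0.15 without 30 h replicate 1 and -0.67 without 30 h replicate 2. Of all 5338 probe sets, 175, 85 and 219 were called lower in the settings of those 3 counts.

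The main fall came between 30 and 60 h. At 60 h against 30 h, 58 genes fell and 0 rose, where 11.7% of all probe sets fell and 16.2% rose, 28% together. The median log2 change was -1.07, beside 0.05 for all probe sets, and all 75 changes were below 0. In 59 genes every 60 h array lay below every 30 h array, which held for 21.3% of all probe sets, with 26.6% entirely above. The largest falls were -2.48 ± 0.47 for RPP2A, -2.16 ± 0.27 for RPL31B, -2.16 ± 0.33 for RPL13A and -2.01 ± 0.18 for RPL9B. Left without the 5′-poor arrays, the fit called 69 genes lower, among them the same 58, while without 30 h replicate 2 the count was 36. Of all 5338 probe sets, 831 and 224 were lower in these settings. A fit on the 60 and 30 h arrays only called 23, and 230 of all 5338 probe sets.

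From 60 to 80 h part of the fall was regained. At 80 h against 60 h, 35 genes rose and 0 fell, where 9.42% of all probe sets rose and 10.9% fell, 20.3% together, and the median log2 change was 0.56, beside -0.04 for all. Of these 35 genes, 33 had fallen at 60 h, as had 58 of all 75. Both comparisons use the same 60 h arrays, so the overlap is not independent evidence. The largest rises were 1.26 ± 0.16 for RPL9B, 1.18 ± 0.17 for RPL17B, 1.16 ± 0.30 for RPL13A and 1.13 ± 0.17 for RPL14A. RPL29, a small protein that joins late in assembly, had a change of -0.45 ± 0.18 (adjusted p = 0.096) here. With the 5′-poor arrays left out, 52 genes rose, 32 of the 35 among them, whereas RPL13A had 0.75 (adjusted p = 0.093). In that setting 610 of all 5338 probe sets rose. The count of large subunit genes was 52 without 60 h replicate 1, and 23, 21 and 20 without 60 h replicate 2, 80 h replicate 1 and 80 h replicate 2, each left out alone. In the same order 512, 325, 269 and 233 of all 5338 probe sets rose. The count was also taken in other settings. It was 19 with arrays centred, 22 on the 80 and 60 h arrays only and 18 at an adjusted p under 0.01. Of all 5338 probe sets, 464 rose with arrays centred and 197 at the stricter threshold. The fit on the 80 and 60 h arrays only called 585 of them. RPL13A did not pass without 80 h replicate 1 (0.99) or replicate 2 (1.13).

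From 80 to 102 h few genes changed. At 102 h against 80 h, 11 rose and 0 fell, where 7.59% of all probe sets rose and 8.36% fell, with a median log2 change of 0.12 beside -0.04 for all. In 34 genes every 102 h array lay above every 80 h array and in 8 below, which held for 26.3% and 30.5% of all probe sets. The largest rises were 1.12 ± 0.23 for RPP0, the stalk base, 1.03 ± 0.18 for RPL29, 0.82 ± 0.24 for RPL6B and 0.82 ± 0.11 for RPL18B. RPL29 had signals of 2935, 3186 and 3037 at 102 h, against 1631, 1343 and 1529 at 80 h. Its 102 h arrays all lay above its 80 h arrays, and it was 1 of the 3 genes lowest at 80 h. RPL18B was read by a shared probe set, and its single-transcript set gave 0.86 (adjusted p = 0.38). With the 5′-poor arrays left out, 22 genes rose and 1 fell, where 1053 of all 5338 probe sets rose and 1231 fell. The count of rises was 3 to 6 without 8 h replicate 2 or without any 1 array of 80 or 102 h. Over all probe sets it was 175 to 338 in those settings. On the authors' scale the median turned to -0.05, with 3 rises and 1 fall, where 123 of all 5338 probe sets rose and 1425 fell. A fit on the 102 and 80 h arrays only gave 31 rises and 8 falls, and it called 2588 of all 5338 probe sets. RPL6B did not pass without 80 h replicate 2 (0.90) or replicate 3 (0.58), or without 102 h replicate 1 (0.86), replicate 2 (0.84) or replicate 3 (0.77).

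Across the whole fermentation the large subunit genes ended below their early level. At 102 h against 8 h, 60 genes were lower and 0 higher, where 28.6% of all probe sets were lower and 21.6% higher, 50.2% together, with a median log2 change of -0.71 beside -0.09 for all. In 68 genes every 102 h array lay below every 8 h array, which held for 36.6% of all probe sets. The largest falls were -2.26 ± 0.25 for RPL31B, -2.09 ± 0.41 for RPL4B, -1.74 ± 0.41 for RPL22B and -1.67 ± 0.20 for RPL34A. At the other end were RPL10 at 0.14 ± 0.15 (adjusted p = 0.45), RPL4A at 0.11 ± 0.27 (adjusted p = 0.74) and RPL40A at 0.06 ± 0.12 (adjusted p = 0.69). At an unadjusted p under 0.05 limma gave 0 higher and 62 lower here, 0 and 67 at 60 h against 30 h, 53 and 1 at 80 h against 60 h, and 15 and 0 at 102 h against 80 h. Over all 5338 probe sets these were 1311 and 1700, 1234 and 933, 883 and 1007, and 753 and 915 in the same order. In a fit without the 5′-poor arrays 65 genes were lower, among them 59 of the 60, and 1799 of all 5338 probe sets were lower. The comparisons at 8, 30, 60, 80 and 102 h share arrays, so their counts are not independent: 52 genes were called lower in both this comparison and 60 h against 30 h, and 30 of them also rose at 80 h against 60 h.

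**Figure D2:**
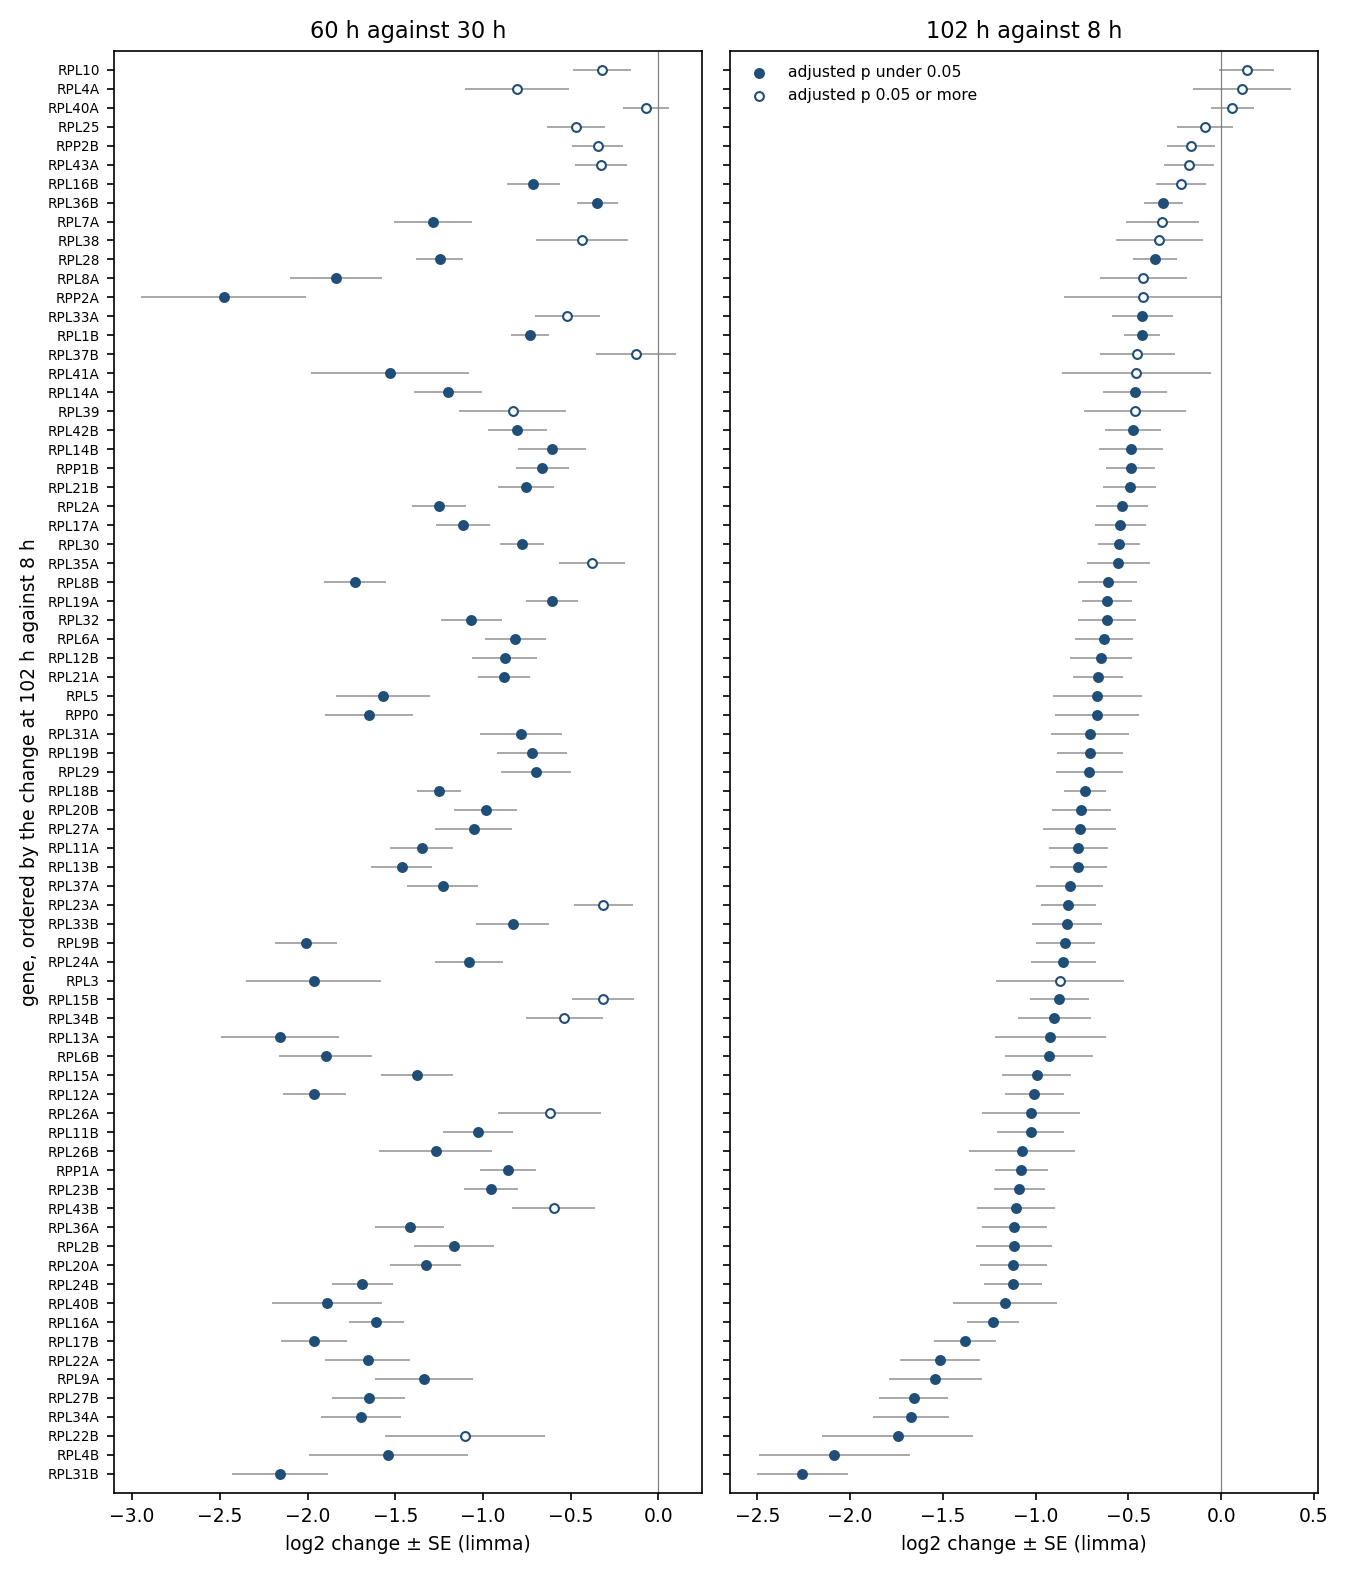
Log2 change of each of the 75 genes at 60 h against 30 h (left) and at 102 h against 8 h (right), with bars of 1 standard error from limma; genes run down the page from the least to the most lowered at 102 h, and filled points passed an adjusted p under 0.05. Filled points number 58 on the left and 60 on the right, all left of 0.

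The stalk is a flexible arm that recruits the translation GTPases; Rpp0 anchors pairs of the acidic proteins P1 and P2, and Rpl12 sits beside its base. At 60 h against 30 h, 6 of its 7 genes fell, with a median log2 change of -0.88, and at 102 h against 8 h 5 of 7 were lower, where 11.7% and 28.6% of all probe sets were lower. RPP0 had signals of 4785, 5657 and 5730 at 8 h, 3146 and 5127 at 30 h, 860, 1369 and 1782 at 60 h, 1595, 1561 and 1525 at 80 h, and 3268, 3299 and 3582 at 102 h. Its 60 and 80 h arrays overlapped and lay below all others, so that its regain came after 80 h (1.12 ± 0.23 at 102 h against 80 h, against 0.29 ± 0.23, adjusted p = 0.39, at 80 h against 60 h). RPP0 was lower at 102 h than at 8 h by -0.67 ± 0.23 (adjusted p = 0.025), and did not pass on the authors' scale (-0.63, adjusted p = 0.051), with arrays centred (-0.53, adjusted p = 0.072), or without 8 h replicate 2 (-0.63), 8 h replicate 3 (-0.62), 102 h replicate 1 (-0.64) or 102 h replicate 2 (-0.65).

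The acidic proteins differed among themselves. RPP2A had 1896, 3741 and 3431 at 8 h, 1699 and 3421 at 30 h, 219, 398 and 928 at 60 h, 927, 1098 and 993 at 80 h, and 2292, 1871 and 2352 at 102 h. Its lowest values were on the 2 low 5′ arrays of 60 h, and the fall of -2.48 at 60 h against 30 h was -1.38 once those of all times were left out (adjusted p = 0.0033) and -1.97, not passing, without 30 h replicate 2. On the 60 and 30 h arrays only it did not pass (adjusted p = 0.056). RPP2B had 2714, 3844 and 3536 at 60 h, against 3757 and 4771 at 30 h; the arrays overlapped, and its log2 change was -0.35 ± 0.15 (adjusted p = 0.094), or -0.59 (adjusted p = 0.033) with arrays centred and -0.52 (adjusted p = 0.044) without 30 h replicate 1.

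RPP1A and RPP1B both fell at 60 h, by -0.86 ± 0.16 and -0.66 ± 0.15, and were lower at 102 h than at 8 h, by -1.08 ± 0.14 and -0.49 ± 0.13. Between 80 and 102 h RPP1B rose by 0.42 ± 0.13 (adjusted p = 0.047) and RPP1A had -0.07 ± 0.14 (adjusted p = 0.78). RPP1B at 60 h did not pass without 30 h replicate 2 (-0.36), and at 102 h against 8 h it did not pass with arrays centred (-0.40, adjusted p = 0.054). RPL12A fell by -1.96 ± 0.18 and RPL12B by -0.88 ± 0.18 at 60 h, the last not passing without 30 h replicate 2 (-0.71). Fitted on the 60 and 30 h arrays only, RPP1A (adjusted p = 0.085), RPP1B (adjusted p = 0.14) and RPL12B (adjusted p = 0.10) did not pass.

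Rpl5 and Rpl11 bind 5S ribosomal RNA and enter the subunit as a preformed particle. All 3 genes fell at 60 h and were lower at 102 h than at 8 h, where 11.7% and 28.6% of all probe sets were lower. RPL5 had 5924, 5672 and 5369 at 8 h, 3957 and 5208 at 30 h, 924, 1940 and 1993 at 60 h, 2543, 2861 and 2158 at 80 h, and 3948, 3483 and 3276 at 102 h. No 2 times overlapped, and in order from the lowest they were 60, 80, 102, 30 and 8 h. Its change at 60 h against 30 h was -1.57 ± 0.27 (adjusted p = 0.0011), beside -1.35 ± 0.18 for RPL11A and -1.03 ± 0.20 for RPL11B. On the 60 and 30 h arrays only, RPL5 did not pass (adjusted p = 0.055). RPL5 at 102 h against 8 h, -0.67 ± 0.24 (adjusted p = 0.033), did not pass on the authors' scale (-0.65, adjusted p = 0.058), with arrays centred (-0.54, adjusted p = 0.089), or without any 1 array of 8 h or without 102 h replicate 2 or 3 (-0.70 to -0.61).

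Around the catalytic centre, Rpl2, Rpl3 and Rpl10 contact the peptidyl transferase RNA or the transfer RNAs. At 60 h against 30 h RPL2A (-1.25 ± 0.16), RPL2B (-1.16 ± 0.23) and RPL3 (-1.97 ± 0.39) fell, and RPL10 had -0.32 ± 0.16 (adjusted p = 0.16). RPL3 had 5333, 9367 and 9367 at 8 h, 4942 and 8114 at 30 h, 822, 2000 and 2593 at 60 h, 3409, 3531 and 3075 at 80 h, and 3957, 4328 and 4476 at 102 h. The low values of 8 h and of 60 h were both on replicate 1, a low 5′ array. Its fall at 60 h was -1.29 once those of all times were left out (adjusted p = 0.00071) and -1.61, not passing, without 30 h replicate 2. On the 60 and 30 h arrays only it did not pass (adjusted p = 0.060).

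At 102 h against 8 h RPL3 had -0.87 ± 0.35 (adjusted p = 0.051), a value that passed without the 5′-poor arrays (-1.14, adjusted p = 5.1e-05), without 8 h replicate 1 alone (-1.14) and without 60 h replicate 1 or replicate 3 (-0.87 in both). Rpl10 is among the last proteins to join, placed by the chaperone Sqt1. RPL10 had 4913, 6596 and 6455 at 8 h, 5217 and 6128 at 30 h, 3633, 5199 and 4900 at 60 h, 6923, 6891 and 6142 at 80 h, and 6891, 6293 and 6418 at 102 h. Its 80 and 102 h arrays overlapped those of 8 h, and it rose by 0.55 ± 0.15 (adjusted p = 0.019) at 80 h against 60 h.

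The exit tunnel is lined by Rpl4, Rpl17 and Rpl39, and its mouth is ringed by Rpl19, Rpl25, Rpl26, Rpl31 and Rpl35, where chaperones and the signal recognition particle dock. Of 13 genes measured here, 8 fell at 60 h against 30 h with a median of -0.81, and 10 were lower at 102 h than at 8 h with a median of -0.71. The shares called were 61.5% and 76.9%, against 77.3% and 80% of all 75 large subunit genes and 11.7% and 28.6% of all probe sets. RPL31B, the gene with the largest fold range, had 1909, 2352 and 2292 at 8 h, 752 and 1525 at 30 h, 344, 195 and 206 at 60 h, 527, 487 and 458 at 80 h, and 486, 419 and 461 at 102 h. All of its arrays from 60 h on lay below those of 30 h, and those in turn below 8 h.

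RPL25, the docking site for the signal recognition particle, had 5369, 5288 and 5436 at 102 h, against 5903, 5690 and 5520 at 8 h. The 102 h arrays all lay below the 8 h arrays, by a log2 difference of -0.09 ± 0.15 (adjusted p = 0.64) whose sign turned with arrays centred (0.06). Its change at 60 h was -0.47 ± 0.17 (adjusted p = 0.051), and -0.76 without the 5′-poor arrays (adjusted p = 0.00050), -0.68 without 60 h replicate 1 and -0.47 without 8 h replicate 1, all 3 passing. RPL39 had -0.83 ± 0.31 (adjusted p = 0.058) at 60 h and -0.46 ± 0.27 (adjusted p = 0.17) at 102 h against 8 h. In the fit without 5′-poor arrays these were -1.42 (adjusted p = 2.7e-05) and -0.33 (adjusted p = 0.010), and without 60 h replicate 1 alone -1.26 and -0.46, all passing.

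Several large subunit proteins can be lost in laboratory yeast without loss of viability, among them Rpl22, Rpl24, Rpl29, Rpl38, Rpl39 and Rpl41. Of the 8 such genes measured, 5 fell at 60 h against 30 h with a median of -1.09, and 5 were lower at 102 h than at 8 h with a median of -0.78, where 11.7% and 28.6% of all probe sets were lower. RPL22A fell by -1.66 ± 0.24 at 60 h and was lower by -1.52 ± 0.22 at 102 h than at 8 h. RPL22B had 96.5, 141 and 125 at 102 h, against 476, 352 and 379 at 8 h, with no overlap. RPL41A, read by a shared set, fell by -1.53 ± 0.45 (adjusted p = 0.022) at 60 h and did not pass without 30 h replicate 1 (-1.63) or replicate 2 (-1.43). Its value was -0.91 without 60 h replicate 3 and -2.77 without the 5′-poor arrays, both passing. It did not pass on the 60 and 30 h arrays only (adjusted p = 0.14).

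RPL7A, the remaining copy of its pair measured here and also read by a shared set, fell by -1.28 ± 0.22 at 60 h. It rose by 0.66 ± 0.20 (adjusted p = 0.039) at 102 h against 80 h and stood at -0.32 ± 0.20 (adjusted p = 0.20) at 102 h against 8 h. That value was -0.53, passing, without 8 h replicate 1. Among the 11 genes without a paralogue in the name, 7 fell at 60 h with a median of -0.83, against 11.7% of all probe sets. RPL28 had 2176, 1749 and 1684 at 60 h, against 4123 and 4715 at 30 h, and was named after its values were seen.

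Paralogues were compared through the log2 signal of the A gene minus that of the B gene on the same array, in which a shift common to an array cancels. A change in this difference shows that the signals of the copies changed by unequal amounts, not which copy is more abundant. The array held 52 A/B pairs, 29 of them of the large subunit, 21 of the small subunit and 2 others. The difference changed over time in 25 of 29 large subunit pairs by limma's F-test, against 82.7% of all 52 pairs and 18 of the 23 other pairs. RPL2, RPL8, RPL19 and RPL22 did not pass, and RPL2 and RPL8 have an A gene read by a shared probe set. For RPL2 the A minus B change at 60 h against 30 h was -0.09 ± 0.27 (adjusted p = 0.78) with the shared set and -1.17 (adjusted p = 0.00025) without shared sets. For RPL8 it was -0.11 ± 0.20 (adjusted p = 0.66) and -0.46 (adjusted p = 0.011). At 102 h against 8 h the sign of both pairs turned with the probe set. RPL2 had 0.58 ± 0.24 (adjusted p = 0.060) with the shared set and -0.76 (adjusted p = 0.0022) without. RPL8 had 0.19 ± 0.18 (adjusted p = 0.40) and -0.14 (adjusted p = 0.33). A fit without the 5′-poor arrays also passed 25 pairs, 24 of them the same.

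At 60 h against 30 h, 17 of 29 pairs moved apart, against 50% of all 52 pairs; A changed more upward in 8 and B in 9. At 102 h against 8 h it was 15 pairs, again against 50%, with A more upward in 7 and B in 8. The count was 13 at 80 h against 60 h (38.5% of all pairs) and 8 at 102 h against 80 h (28.8%). Without shared sets 12 pairs passed at 80 h against 60 h, 11 of the 13 among them. There RPL11 went from 0.47 to -0.02 (adjusted p = 0.93) and RPL14 from 0.57 to 0.25 (adjusted p = 0.12), while RPL8 passed at 0.53 (adjusted p = 0.0064). At 60 h against 30 h 20 pairs passed without shared sets, the 17 among them, with RPL21 going from -0.12 to -0.51 (adjusted p = 0.0043). At 30 h against 8 h limma called 0 of 29 (0% of all pairs), and 5 had an unadjusted p under 0.05. The median absolute difference was 0.65 at 60 h against 30 h and 0.36 at 102 h against 8 h, and it passed 1 in 9 and 4 pairs. In 22 of 29 pairs the copy brighter at 8 h changed more upward at 60 h against 30 h. The count was also 22 at 102 h against 8 h. It was 19 at 30 h against 8 h, 10 at 80 h against 60 h and 14 at 102 h against 80 h. Of the called pairs this held for 14 of 17 at 60 h (not RPL15, RPL16 or RPL26). At 102 h against 8 h it was 13 of 15 (not RPL16 or RPL9). For 80 h against 60 h and 102 h against 80 h it was 4 of 13 and 2 of 8. Whether probe brightness played a part was not tested.

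Leaving the 5′-poor arrays out, the counts of large subunit pairs called in order of time were 3, 16, 5 and 12, and 18 at 102 h against 8 h. The count at 80 h against 60 h was 7, 8, 8 and 6 without 60 h replicate 1, 60 h replicate 2, 80 h replicate 1 and 80 h replicate 2, and that at 102 h against 80 h was 5 without 8 h replicate 3 and 4 without any 1 array of 80 or 102 h. That at 30 h against 8 h was 2 without 8 h replicate 1 and 1 without 30 h replicate 2 or 60 h replicate 2. In these settings, and without shared sets, no count over all A/B pairs is given here. Whether the shifts in these counts are particular to large subunit pairs was not tested.

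**Figure D3:**
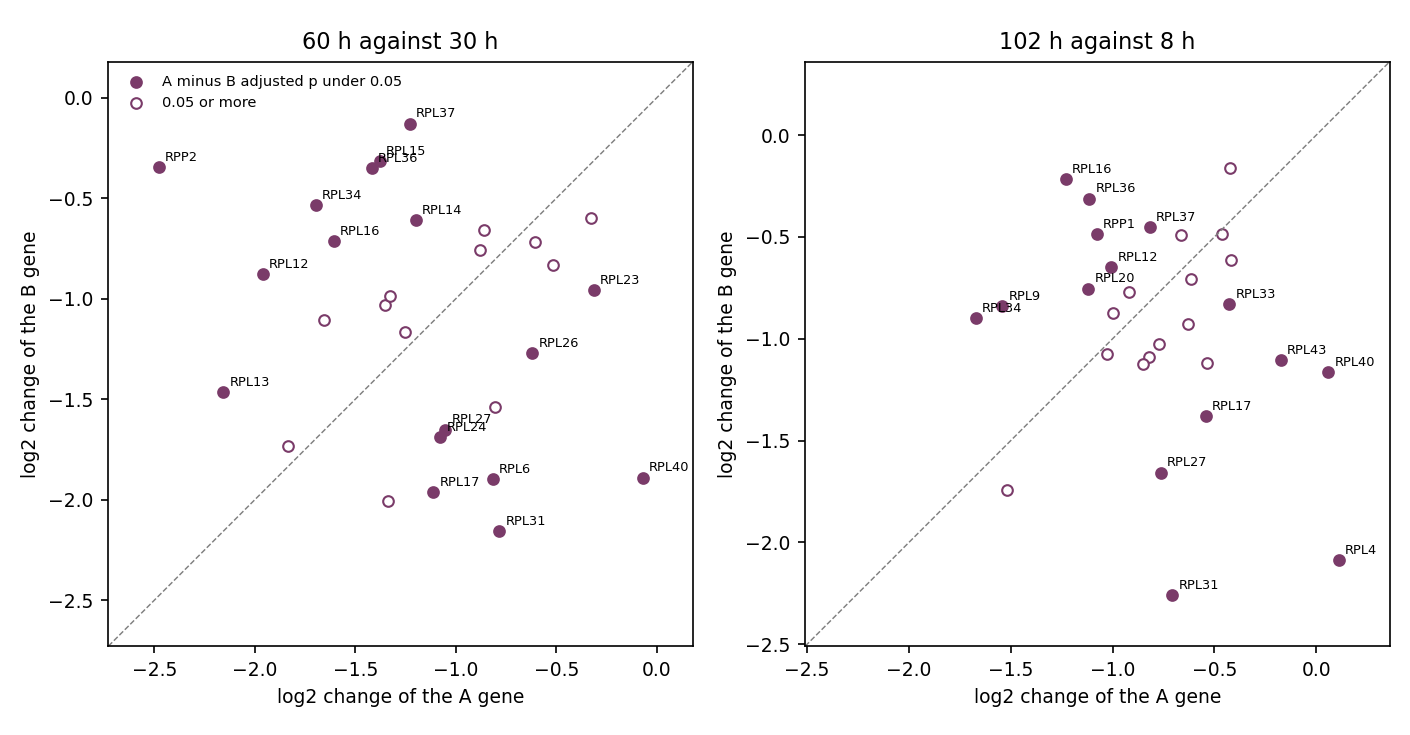
Log2 change of the B gene against that of the A gene for 29 pairs at 60 h against 30 h (left) and 102 h against 8 h (right); pairs on the dashed line changed equally, and filled, named points have an A minus B change with an adjusted p under 0.05. Filled points lie on both sides of the line, 17 on the left and 15 on the right.

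The 8 pairs with the lowest F-test p were RPL16, RPL36, RPL34, RPL40, RPL31, RPL12, RPL17 and RPL26, none with a shared probe set. In 3 of them the A copy kept more of its signal at both 60 and 102 h. Rpl40 is made as a fusion to ubiquitin and released by cleavage. RPL40A had 6537, 5867 and 5436 at 8 h, 5820 and 6057 at 30 h, 6619, 4996 and 5465 at 60 h, 7076, 6923 and 6256 at 80 h, and 5786, 6173 and 6596 at 102 h. RPL40B had 3299, 2998 and 3131 at 8 h, 1830 and 2829 at 30 h, 1096, 427 and 494 at 60 h, 1135, 935 and 810 at 80 h, and 1416, 1343 and 1446 at 102 h.

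The RPL40A arrays overlapped in all 5 comparisons, while every RPL40B array from 60 h on lay below all those of 8 and 30 h. The A minus B change was 1.82 ± 0.25 (adjusted p = 0.00014) at 60 h against 30 h and 1.22 ± 0.23 (adjusted p = 0.00083) at 102 h against 8 h. Leaving out the 5′-poor arrays gave 2.08 and 1.26. RPL40B itself had -1.89 ± 0.31 at 60 h against 30 h, a fall that did not pass on the arrays of those times only (adjusted p = 0.053).

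Rpl31, at the tunnel mouth, lies near the docking site of the ribosome-associated chaperone complex. RPL31A had 7329, 4996 and 6142 at 8 h, 4146 and 5409 at 30 h, 4002, 2564 and 2030 at 60 h, 3844, 4030 and 3504 at 80 h, and 3757, 3771 and 3650 at 102 h. It fell by -0.78 ± 0.23 (adjusted p = 0.024) at 60 h and was lower by -0.71 ± 0.21 (adjusted p = 0.013) at 102 h than at 8 h, where RPL31B had -2.16 and -2.26. The A minus B change was 1.37 ± 0.24 (adjusted p = 0.00055) at 60 h against 30 h and 1.55 ± 0.21 (adjusted p = 0.00018) at 102 h against 8 h. RPL31A itself did not pass at 60 h without 30 h replicate 2 (-0.59), 60 h replicate 2 (-0.73) or 60 h replicate 3 (-0.56) or on the 60 and 30 h arrays only (adjusted p = 0.16), nor at 102 h without 8 h replicate 1 (-0.57) or with arrays centred (-0.55, adjusted p = 0.091).

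Rpl17 lines the tunnel. RPL17A had 1613, 1339 and 1326 at 60 h, against 2549 and 3704 at 30 h, and RPL17B had 298, 303 and 314 at 60 h, against 888 and 1595 at 30 h. Both fell without overlap, RPL17A by -1.11 ± 0.15 and RPL17B by -1.96 ± 0.19. The A minus B change was 0.85 ± 0.15 (adjusted p = 0.00065) at 60 h against 30 h and 0.84 ± 0.14 (adjusted p = 0.00037) at 102 h against 8 h.

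In 4 of the 8 pairs the B copy kept more at both times. RPL16A had 5502, 5835 and 6173 at 8 h, 3685 and 5657 at 30 h, 1634, 1506 and 1366 at 60 h, 2857, 3227 and 3062 at 80 h, and 2443, 2443 and 2578 at 102 h. RPL16B had 3520, 3747 and 3855 at 8 h, 2573 and 3685 at 30 h, 2169, 1718 and 1779 at 60 h, 2816, 3165 and 2850 at 80 h, and 3179, 3165 and 3211 at 102 h. RPL16A was thus lower at 102 h than at 8 h by -1.23 ± 0.14 (adjusted p = 1.8e-05), and RPL16B had -0.22 ± 0.13 (adjusted p = 0.19) although its arrays did not overlap. The A minus B change was -1.01 ± 0.08 (adjusted p = 3.0e-06) at 102 h against 8 h, and -0.89 ± 0.09 at 60 h against 30 h.

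RPL36A had 1627, 1695 and 1586 at 102 h, against 3716, 3489 and 3421 at 8 h, and RPL36B had 4728, 5047 and 5151 at 102 h, against 6567, 6057 and 5903 at 8 h. Neither overlapped, and both were lower, by -1.11 ± 0.18 for RPL36A and -0.31 ± 0.10 for RPL36B. Their A minus B change was -1.07 ± 0.16 at 60 h against 30 h and -0.80 ± 0.14 at 102 h against 8 h, with adjusted p of 0.00015 and 0.00056. From 80 to 102 h it turned the other way (0.66 ± 0.14, adjusted p = 0.0063), as RPL36A rose by 0.60 ± 0.18 and RPL36B had -0.07 ± 0.10.

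RPL34A had 932, 930 and 1044 at 102 h, against 3020, 3109 and 3124 at 8 h, and RPL34B had 2755, 2967 and 2910 at 102 h, against 6225, 4715 and 5266 at 8 h. Both were lower without overlap. Their A minus B change was -1.16 ± 0.15 (adjusted p = 0.00014) at 60 h against 30 h and -0.77 ± 0.14 (adjusted p = 0.00059) at 102 h against 8 h. For the stalk protein Rpl12 it was -1.08 ± 0.14 (adjusted p = 0.00014) at 60 h against 30 h. At 102 h against 8 h RPL12 had -0.36 ± 0.13 (adjusted p = 0.038), which did not pass without 8 h replicate 2 (-0.31), 8 h replicate 3 (-0.36), 80 h replicate 2 (-0.36), 102 h replicate 1 (-0.36), 102 h replicate 2 (-0.37) or 102 h replicate 3 (-0.35).

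RPL26, whose protein sits at the tunnel mouth, moved apart at 60 h and back again by 80 h. RPL26A had 2733, 1360 and 1022 at 60 h, against 2043 and 2809 at 30 h, and RPL26B had 2074, 1006 and 772 at 60 h, against 2180 and 3669 at 30 h. The RPL26A arrays overlapped and those of RPL26B did not. In this pair A minus B changed by 0.65 ± 0.11 (adjusted p = 0.00048) at 60 h against 30 h, -0.79 ± 0.10 (adjusted p = 0.00022) at 80 h against 60 h and 0.05 ± 0.10 (adjusted p = 0.69) at 102 h against 8 h. Both copies were lower at 102 h than at 8 h, RPL26A by -1.03 ± 0.26 and RPL26B by -1.07 ± 0.29.

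**Figure D4:**
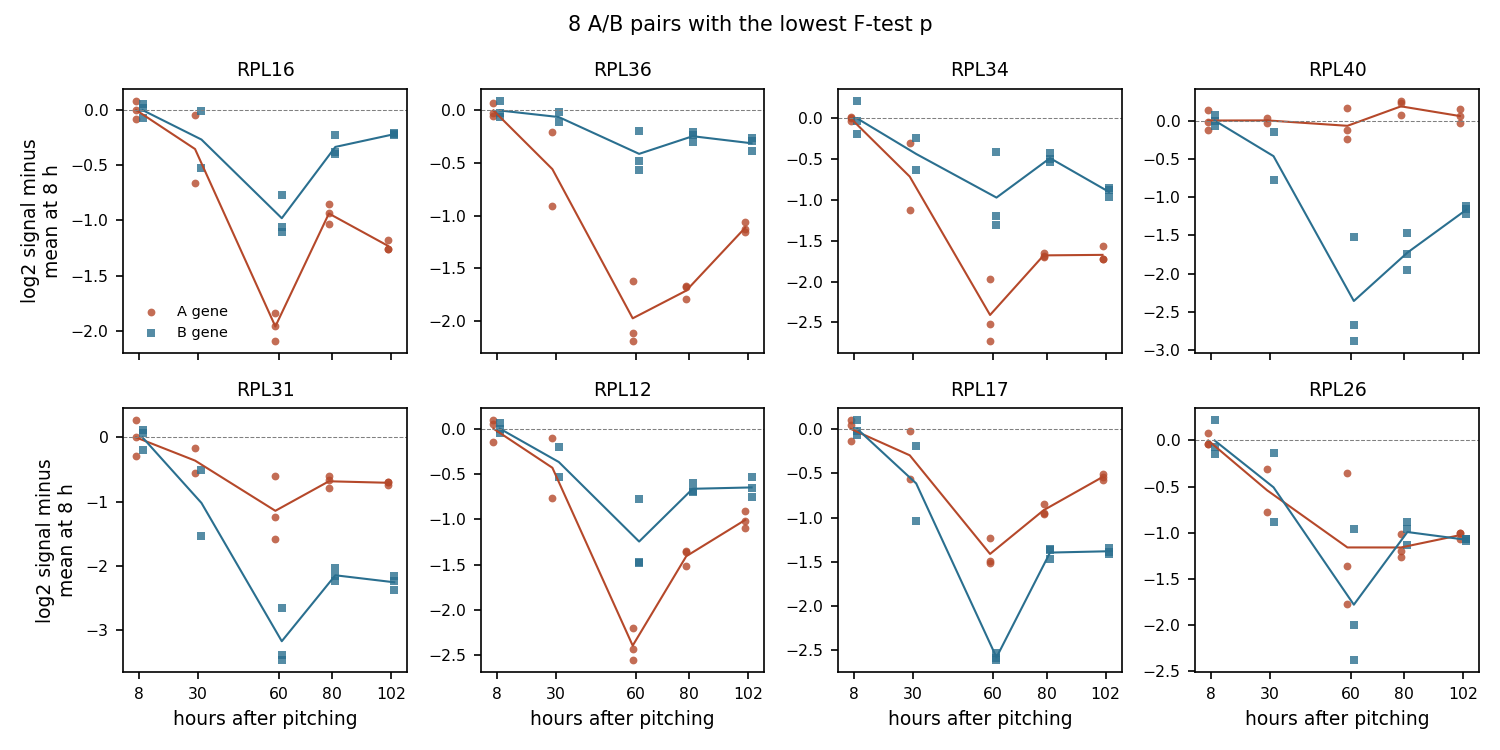
Log2 signal minus the gene's own mean at 8 h for the A gene (orange circles) and the B gene (blue squares) of 8 pairs against hours after pitching; each point is 1 array, lines join time means, and points are set slightly to the left (A) and right (B) of their time. RPL40A stays near 0 while RPL40B drops, RPL16, RPL36, RPL34 and RPL12 have the B gene above the A gene from 60 h on, and RPL26 separates at 60 h and meets again by 102 h.

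The acidic stalk pair RPP2 had an A minus B change of -2.13 ± 0.44 (adjusted p = 0.0016) at 60 h against 30 h and -0.26 ± 0.39 (adjusted p = 0.58) at 102 h against 8 h. They were -1.12 (adjusted p = 0.0040) and -0.59 (adjusted p = 0.019) once the 5′-poor arrays were left out. RPL4 had 2.20 ± 0.62 (adjusted p = 0.012) at 102 h against 8 h, with an A gene read by a shared set; RPL4B had 94.8, 105 and 99.7 at 102 h, against 658, 360 and 320 at 8 h. Of pairs with no shared set, RPL37 had -1.10 ± 0.15 (adjusted p = 0.00014), RPL15 -1.06 ± 0.20 (adjusted p = 0.00090) and RPL6 1.08 ± 0.25 (adjusted p = 0.0035) at 60 h against 30 h. Of these, RPL37 alone passed at 102 h against 8 h, by -0.36 ± 0.14 (adjusted p = 0.044). RPL43 and RPL27 had 0.93 ± 0.18 and 0.89 ± 0.18 at 102 h against 8 h, with adjusted p of 0.00097 and 0.0015. RPL9 had -0.70 ± 0.27 (adjusted p = 0.044) at 102 h against 8 h, with RPL9A lower by -1.54 ± 0.25 and RPL9B by -0.84 ± 0.16. RPL9A fell by -1.34 ± 0.28 at 60 h against 30 h, and did not pass without 30 h replicate 2 (-0.79) or on the 60 and 30 h arrays only (adjusted p = 0.087).

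The neighbouring machinery did not move as 1 block. Small subunit genes, the partners of the large subunit in the ribosome, went the same way: of 53, 40 fell and 0 rose at 60 h against 30 h (median -0.84), 26 rose and 0 fell at 80 h against 60 h (median 0.50), and 32 were lower and 0 higher at 102 h than at 8 h (median -0.47). The largest falls at 102 h against 8 h were -1.79 ± 0.24 for RPS26B and -1.47 ± 0.28 for RPS22A. The 3 counts were 48, 46 and 39 without the 5′-poor arrays, and with arrays centred 42, 14 and 18. Over all probe sets 11.7% fell, 9.42% rose and 28.6% were lower in those comparisons. Without the 5′-poor arrays these were 831, 610 and 1799 of the 5338 probe sets, and with arrays centred 794, 464 and 1385. The 34 genes of the mitochondrial large subunit had 1 higher and 1 lower at 60 h against 30 h (median -0.03), and 1 higher and 12 lower at 102 h against 8 h (median -0.29), led by MRPL22 at -0.96 ± 0.24. The share lower at 102 h, 35.3%, lay near the 28.6% of all probe sets. Without the 5′-poor arrays those counts were 2 and 5, and 5 and 14. Over all 5338 probe sets they were 951 and 831, and 1525 and 1799. The mitochondrial median at 60 h against 30 h was 0.08 on the authors' scale.

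Genes that chaperone, export and release the new 60S particle were higher late. Of 18, 15 were higher and 1 lower at 102 h than at 8 h, with a median of 1.25, against 21.6% of all probe sets called higher. The largest were RSA4, an assembly factor (2.64 ± 0.36), TIF6, which keeps the 60S particle from joining the small subunit (2.45 ± 0.41), and ALB1, an export partner of Arx1 (2.00 ± 0.12). SDO1, which helps release Tif6, was lower (-1.52 ± 0.24). At 60 h against 30 h, where 58 large subunit genes fell, 6 of the 18 rose and 0 fell (median 0.19). Over all probe sets 16.2% rose and 11.7% fell in that comparison. Omitting the 5′-poor arrays, 15 were higher and 1 lower at 102 h than at 8 h, on the authors' scale 14 and 1, and with arrays centred 15 and 1. Of all 5338 probe sets, 1525, 886 and 1143 were higher in those settings.

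Of 16 regulators of ribosomal protein genes, 4 were higher and 3 lower at 102 h than at 8 h, with a median of 0.27. These shares, 25% and 18.8%, lay near or below those of all probe sets, 21.6% and 28.6%. TOD6, a repressor of ribosome biogenesis genes, had 1.61 ± 0.14, CRF1, a corepressor at ribosomal protein genes, 1.46 ± 0.18, and IFH1, their coactivator, 1.12 ± 0.18. TOR1, a kinase of the nutrient pathway, had -1.11 ± 0.26. Among 11 measured partners of the stalk and of the growing chain, 0 were higher and 4 lower (median -0.20), or 1 and 5 at an unadjusted p under 0.05 in limma. At that unadjusted p 1311 of all 5338 probe sets were higher and 1700 lower. The share of partners called lower, 36.4%, lay near the 28.6% of all probe sets. BTT1, a minor subunit of the nascent chain complex, had -2.44 ± 0.43, and GCN1, which works with the stalk in starvation signalling, -1.38 ± 0.16. TEF1 and EFT1 are not analysed here. Omitting the 5′-poor arrays, the counts were 6 and 5 for the regulators and 0 and 6 for the partners. Over all 5338 probe sets they were 1525 and 1799. On the authors' scale 2 partners were higher and 4 lower, and with arrays centred 2 and 2. Over all probe sets these were 886 and 1621, and 1143 and 1385.

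**Figure D5:**
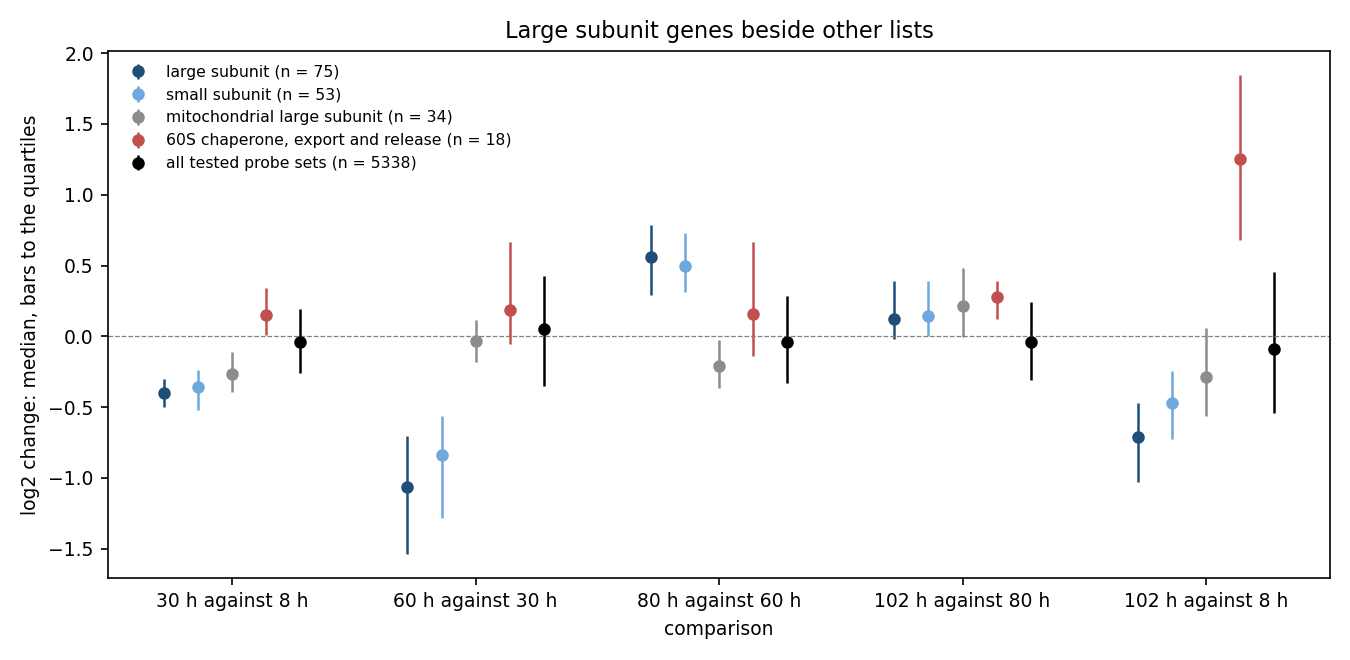
Median log2 change (points) and quartiles (bars) of the 75 large subunit genes, 53 small subunit genes, 34 mitochondrial large subunit genes, 18 genes for chaperoning, export and release of the 60S particle and all 5338 tested probe sets, in each of 5 comparisons on the horizontal axis. The 2 cytosolic subunits lie below all probe sets at 60 h against 30 h, and the 60S factors lie above at 102 h against 8 h with a median of 1.25.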

How the data were processed

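The deposited table, made by the authors, holds 1 signal intensity per probe set and array on a linear scale for 14 arrays; the software was GCOS 5.0, per the submitters' processing notes, while for the scaling target the sources used here give no value. In log2 units the array medians lay within 0.777 of each other, wider than the 0.2 tolerated, so values were quantile normalized. A platform annotation named 5498 probe sets for 5449 S. cerevisiae genes, updated through assembly R64 for names only. The background threshold, 22.1, is the 95th percentile of the dimmer part of all probe sets, split at the median, and its median, 5.58, is the floor before log2. Testing needed a signal over the threshold on 2 or more arrays of 1 time, which 5338 probe sets had.

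One limma model (version 3.58.1, R 4.3.3) of the 5 times with an intensity trend covered all 14 arrays, with Benjamini-Hochberg adjustment over all 5338 probe sets at 0.05. Errors after a log2 change are standard errors from this fit. The A minus B differences of 52 pairs were fitted the same way without the trend and adjusted over the 52. The steps were tested on simulated data. Members and gene lists were chosen with earlier results of these data known, so no list has a test of its own.

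Named genes are, per comparison, the 4 largest rises and falls past the test (or the 2 largest changes where none passed), the 8 pairs of lowest F-test p, the stalk genes, a list written in advance, the 3 genes farthest from the median on each side at 102 h against 8 h, and up to 3 genes of each other list. RPL11A, RPL11B, RPL2A, RPL2B, RPL28, RPL29 and the pairs outside the 8 were added after their values were seen. Other settings tried were the authors' scale, centring, another floor, other filters, no trend, a stricter threshold, the mean of a gene's probe sets, no shared sets, 5′-poor arrays left out, the mean 5′ to 3′ ratio as a covariate, a block for the replicate number, only the arrays of the times compared, and each array left out.

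All samples came from 1 vessel, and no label says that replicates were separate cultures. The spread behind each p-value is thus that between these samples and may be technical, and the number of arrays limits the precision.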

Additional observations from a re-analysis of the deposited data

How the results depend on the processing

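The fall at 60 h against 30 h and the lower level at 102 h against 8 h kept the sign of their medians under every setting tried. In the settings where shared calls were counted on the same genes (5′-poor arrays left out, covariate, replicate block, centring and the authors' scale), 56 to 58 of the 58 and 45 to 60 of the 60 calls were shared. A fit using only the arrays compared left 23 genes lower at 60 h (56 at an unadjusted p under 0.05). That fit also gave 22 rises and 6 unequal pairs at 80 h against 60 h, and 31 rises, 8 falls and 14 pairs at 102 h against 80 h. In these 3 comparisons it called 230, 585 and 2588 of all 5338 probe sets, in order of time. On the authors' scale the median at 102 h against 80 h turned to -0.0502, with 3 rises and 1 fall. On that scale the median of all tested probe sets was -0.31, and the large subunit genes stood 0.26 above it. The shift of all probe sets on that scale in the other comparisons was -0.18, 0.09, 0.25 and -0.16 in time order, with 102 h against 8 h last. Rises at 102 h against 80 h numbered 6 without the intensity trend, 3 at a threshold of 0.01, 22 without the 5′-poor arrays and 19 with each array's 5′ to 3′ ratio added as covariate. There was 1 fall in each of the last 2 and without shared probe sets. Over all 5338 probe sets the rises numbered 386, 142, 1053 and 921 in the order of the settings above.

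With arrays centred the medians in order of time were -0.13, -1.28, 0.38 and 0.29, and 19 genes rose at 80 h against 60 h. Without the 5′-poor arrays 11 genes were lower at 30 h, the medians at 60 h and 80 h were -1.22 and 0.73, and 3 and 5 pairs passed at 30 h against 8 h and at 80 h against 60 h. The covariate gave 8 lower at 30 h, a median of -1.22 at 60 h, and 55 rises and 7 pairs at 80 h against 60 h. Of all 5338 probe sets it called 198 lower at 30 h and 736 higher at 80 h against 60 h. At the threshold of 0.01, 18 genes rose at 80 h against 60 h, and 5, 4 and 9 pairs passed at 80 h against 60 h, 102 h against 80 h and 102 h against 8 h. The authors' scale and centring each gave 1 pair at 30 h against 8 h. The causes were not tested.

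Leaving out 1 array at a time gave 70 to 72 genes by the F-test, 0 to 23 lower at 30 h, 36 to 68 lower at 60 h, 20 to 52 higher and 0 to 1 lower at 80 h, 3 to 16 higher and 0 to 1 lower at 102 h against 80 h, and 52 to 64 lower at 102 h against 8 h. Of all 5338 probe sets, 0 to 175 were lower at 30 h, 224 to 782 lower at 60 h and 233 to 724 higher at 80 h. At 102 h against 80 h 175 to 622 were higher, and at 102 h against 8 h 1269 to 1736 were lower. The medians of the large subunit genes ranged over -0.67 to -0.15, -1.30 to -0.79, 0.44 to 0.72, 0.10 to 0.14 and -0.74 to -0.71 in order of comparison. Unequal pairs numbered 21 to 25 by the F-test, and 0 to 2, 14 to 20, 6 to 15, 4 to 9 and 11 to 18 by comparison. All counts of pairs under other settings are of large subunit pairs, and none over all A/B pairs is given beside them.

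Values near 0 changed sign. RPL40A at 30 h against 8 h was -0.0215 with the replicate block and -0.0608 to 0.0723 with 1 array left out. At 60 h against 30 h it was 0.0247 on the authors' scale and -0.184 to 0.0185 with 1 array left out, and at 102 h against 8 h -0.004 to 0.129. At 102 h against 8 h RPL4A was -0.0086 without the 5′-poor arrays, -0.23 with the covariate and -0.0086 to 0.203 with 1 array left out. RPL10 was -0.0408 with the covariate, RPL25 was 0.0561 centred and 0.0672 with the covariate, and the RPL26 difference was -0.0209 without the 5′-poor arrays and -0.0209 to 0.103 with 1 array left out.

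Taken over all times, the replicate numbers of the labels did not meet the rule for paired samples: of 26 correlations between the deviations of same-numbered arrays 4 were over 0.1 (median 0.0115), and of 52 between different numbers 6 were (median 0.0035). Of those 4, 3 were between 8 and 60 h (0.74, 0.283 and 0.637 for replicates 1, 2 and 3). No contrast set 60 h against 8 h here, but both times enter the F-test and the regained share. The arrays with 0.74 are both 5′-poor. With the number as a block, 57 genes fell at 60 h, 38 rose at 80 h, 11 rose at 102 h against 80 h, 61 were lower at 102 h than at 8 h, and 23 pairs passed the F-test. Of all 5338 probe sets 720 fell, 587 rose, 434 rose and 1569 were lower in these comparisons, in the same order. A chip or scan batch could not be used as a block, since the array files read here hold no such entries.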

Other observations

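There were 7 genes with both a set of their own and a shared set, and their values are given at 60 h against 30 h and then at 102 h against 8 h. For RPL2A the set of its own fell by -2.33 at 60 h against 30 h and was lower by -1.88 at 102 h than at 8 h, while the shared set, used above, had -1.25 and -0.54. For RPL8A the set of its own had -2.19 and -0.75, and the shared set -1.84 and -0.42. For RPL14B the set of its own had -0.84 and -0.29, and the shared set -0.61 and -0.49. RPL18B had -1.77 (adjusted p = 0.077) and 0.10 (adjusted p = 0.91) by its own set, and -1.25 and -0.73, both passing, by the shared set used above, so the sign at 102 h differed. For RPL11B the set of its own had -1.06 and -0.83, and the shared set -1.03 and -1.03. For RPL21A these were -1.26 and -0.64, and -0.88 and -0.66. RPL20B, whose own set was used above, had -0.99 and -0.75 by it and -0.94 and -0.88 by the shared set.

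The time courses of the 75 genes were alike. The correlation of a gene's log2 signal with the median of the other genes over the 14 arrays had a median of 0.93, and it was over 0.8 for 67 genes. The lowest were 0.20 for RPL40A, 0.40 for RPL10, 0.51 for RPL4A and 0.73 for RPL15B. The arrays share their scaling and RNA quality, so these are descriptions.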
